A study of Mus musculus with 8 samples.

Results

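Male germ cells pass through meiosis and spermatid formation with their own set of transcription regulators, and 10 genes of this kind were followed here in testes that lacked Ing2: Gtf2a1l, Tbpl1, Taf4b, Crem, Fhl5, Mybl1, Tcfl5, Rfx2, Rfx4 and Sox30. The genes were listed by name and were looked up as the probe sets annotated to exactly 1 of these symbols. All 10 genes were found, each on 1 probe set, so that 10 of the 35557 probe sets and 10 of the 19938 genes with a probe set of their own were concerned. RNA of the whole testis of mice aged 2 to 3 months was measured on Affymetrix Mouse Gene ST arrays, whose probes are spread over the exons of a gene. The groups were 5 Ing2-/- mice (labelled Ing2 KO) and 3 wild-type Ing2+/+ littermates, with 1 array for each mouse. The knockout lacked exon 2 of Ing2 in every tissue, since the floxed exon had been removed in the germ line with EIIa-Cre, and the line was bred with C57BL/6J mice. Ing2 encodes a PHD finger protein of the Sin3-HDAC corepressor complex that binds histone H3 trimethylated on lysine 4. Prm1, a protamine gene and defining marker of the testis, averaged 11.26 (log2) in Ing2-/- testes and 11.47 in Ing2+/+ testes.

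Levels are the deposited RMA values on the log2 scale, a change is the mean of Ing2-/- minus the mean of Ing2+/+ testes, and a gene is called when its Benjamini-Hochberg adjusted p over all probe sets was under 0.05 in limma, a linear model that shares the variance among probe sets. The targeted gene followed its label. Ing2 was at 5.06, 5.64, 5.21, 5.29 and 5.25 in Ing2-/- testes, against 7.43, 7.60 and 7.34 in Ing2+/+ testes, a change of -2.16 with an SE of 0.127 and an adjusted p of 3.95e-04. The array of Ing2-/- replicate 3 stood apart. Across probe sets its mean correlation with the other Ing2-/- arrays was 0.983, against 0.99 to 0.992 for the rest of that group and 0.995 among the Ing2+/+ arrays. Its cell type markers stood apart as well. The log2 summed level of 10 round spermatid markers was 12.64 to 13.39 in Ing2-/- testes and 13.53 to 13.55 in Ing2+/+ testes, with replicate 3 at -0.90 and the other Ing2-/- testes at -0.26 relative to the Ing2+/+ mean. For 10 Sertoli cell markers the summed level was 12.62 to 13.33 in Ing2-/- testes and 12.32 to 12.36 in Ing2+/+ testes, and replicate 3 lay 0.99 above the Ing2+/+ mean. Changes below are therefore given over all arrays and without this array. In RNA of whole testes, fewer cells of a type and less RNA per cell cannot be told apart.

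These regulators work at several steps. The general transcription machinery of germ cells contains relatives of TBP, of the large TFIIA subunit and of the TFIID subunit TAF4, which are encoded by Tbpl1, Gtf2a1l and Taf4b. A-MYB, the product of Mybl1, switches on genes of pachytene spermatocytes including those of the pachytene piRNA pathway, and CREM with its LIM-domain coactivator FHL5 (also known as ACT) acts on genes of haploid spermatids. RFX factors bind promoters of cilia genes, and RFX2 and SOX30 are needed in the mouse for spermatids to develop.

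None of the 10 regulators was called in either direction by limma over all arrays, where 4.82% of all probe sets were called, 3.03% as lower and 1.79% as higher. Of the 10, 9 were measured lower in Ing2-/- testes, where 42.8% of all probe sets had a change below 0. Taf4b was measured higher, a direction that turned when arrays were scaled to equal Sertoli markers. That scaling shifts all probe sets of an array alike and moved the median change of all probe sets to -0.50. A turn under it is therefore no result about a single gene. Without this scaling the median change of the 10 was -0.33, against 0.03 for all probe sets. At an unadjusted p under 0.05, 4 were lower (Gtf2a1l, Tbpl1, Sox30 and Fhl5), a class that held 11.8% of all probe sets, and 0 reached an unadjusted p under 0.001. In 6 genes (Gtf2a1l, Tbpl1, Sox30, Fhl5, Rfx4 and Tcfl5) the 5 Ing2-/- values were all lower than the 3 Ing2+/+ values, as in 12.2% of all probe sets, while no regulator had all Ing2-/- testes on the higher side, where 14.4% of all probe sets lay. Without Ing2-/- replicate 3 the median change of the 10 was -0.18, and Gtf2a1l, Tbpl1, Sox30 and Fhl5 were called lower, with 6.77% of all probe sets called lower in that fit. The plot of levels in each testis shows the spread behind these counts.

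**Figure D1:**
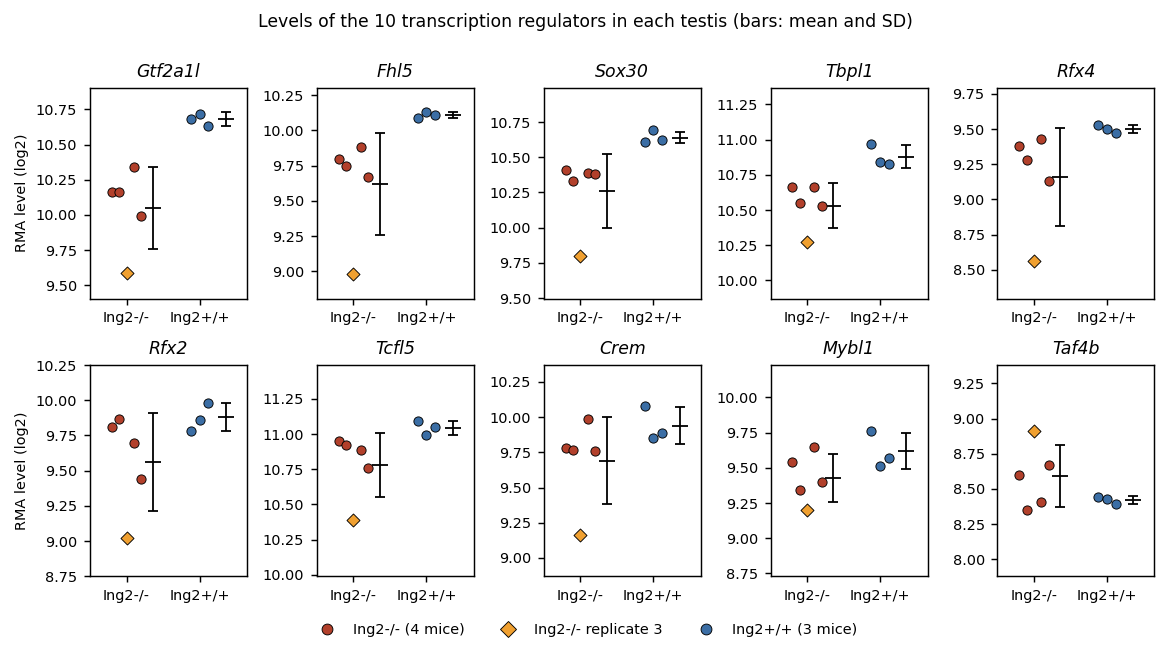
RMA level (log2) of each regulator in 5 Ing2-/- testes (left in each panel, replicate 3 as a diamond) and 3 Ing2+/+ testes (right), with bars for mean and SD; panels are ordered by the change and span the same log2 range. Replicate 3 is the lowest Ing2-/- testis in 9 panels and the highest for Taf4b, and the groups are separate in the panels of Gtf2a1l, Fhl5, Sox30, Tbpl1, Rfx4 and Tcfl5.

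Among the genes of the general machinery, Gtf2a1l had the largest measured change of the 10. GTF2A1L, also called ALF, is the germ cell form of the large TFIIA subunit, which holds TBP or its relatives on DNA. Gtf2a1l was at 10.16, 10.16, 9.59, 10.34 and 9.99 in Ing2-/- testes and at 10.68, 10.72 and 10.63 in Ing2+/+ testes. All Ing2-/- values lay below the lowest Ing2+/+ value, and replicate 3 was the lowest. The change was -0.63 (SE 0.151, 95% interval -0.97 to -0.28), that is, 0.648 of the Ing2+/+ level, and it missed the threshold with an adjusted p of 0.0512 in limma. Without replicate 3 it was -0.51 with an adjusted p of 0.0109. The probe sets left in the test also moved this call, since the adjusted p was 0.0369 over probe sets with 1 symbol only and 0.0379 over probe sets above the median level. Other settings moved it in both directions. The adjusted p was 0.0371 without Ing2-/- replicate 4, and 0.0682 to 0.112 without replicate 1, 2 or 5. Without single Ing2+/+ arrays it was 0.141 to 0.174. It was 0.00801 with array weights and 0.129 without sharing of variance.

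Tbpl1 encodes the TBP-like factor (also known as TRF2 or TLF), which is needed in the mouse for round spermatids to develop. Tbpl1 was at 10.66, 10.55, 10.27, 10.66 and 10.53 in Ing2-/- testes and at 10.97, 10.84 and 10.83 in Ing2+/+ testes. The groups did not overlap, and the spread within Ing2-/- testes was the narrowest of the 10 genes (SD 0.16). The change was -0.35 (SE 0.0977, 95% interval -0.57 to -0.12, adjusted p 0.0726 in limma), and without replicate 3 it was -0.28 with an adjusted p of 0.0291.

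Taf4b, whose product is a TFIID subunit enriched in germ cells and needed in the mouse to maintain spermatogonia, stood apart from the other 9. Its levels were 8.60, 8.35, 8.91, 8.41 and 8.67 in Ing2-/- testes and 8.44, 8.43 and 8.39 in Ing2+/+ testes. The groups overlapped, and replicate 3 held the highest value in place of the lowest. The change was 0.16 (SE 0.122, 95% interval -0.11 to 0.44, adjusted p 0.416 in limma), or 0.08 without replicate 3. It became -0.37 when arrays were scaled to equal Sertoli markers and -0.14 with a cell mix value, described below, as a covariate. The 8 spermatogonia markers had a median change of 0.19. Over all arrays 0 of them were called, and 2 were called higher without replicate 3, as were 7.31% of all probe sets. Their log2 summed level was 11.21 to 11.61 in Ing2-/- testes and 11.03 to 11.13 in Ing2+/+ testes. It lay 0.54 above the Ing2+/+ mean in replicate 3 and 0.20 above it in the other Ing2-/- testes. The part of spermatogonia in the level of Taf4b was not tested.

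The spermatid activator and its coactivator came next. CREM, a bZIP factor of the cyclic AMP response, is made in the testis as activator and repressor isoforms. The Crem probe set is annotated to 10 transcript accessions, so that isoforms cannot be told apart here. Crem was at 9.78, 9.77, 9.16, 9.99 and 9.76 in Ing2-/- testes and at 10.08, 9.85 and 9.89 in Ing2+/+ testes. Replicate 4 lay among the Ing2+/+ values and replicate 3 lay far below the rest. The change of -0.25 (SE 0.168, 95% interval -0.63 to 0.13, adjusted p 0.37 in limma) did not exceed the spread between testes, and without replicate 3 it was -0.12. Fhl5 was at 9.80, 9.75, 8.98, 9.88 and 9.67 in Ing2-/- testes and at 10.09, 10.13 and 10.11 in Ing2+/+ testes. Its groups did not overlap, and replicate 3 differed from the Ing2+/+ mean by -1.13 while the other 4 Ing2-/- testes differed from it by -0.34 on average. The change of Fhl5 was -0.50 (SE 0.186, adjusted p 0.13 in limma), and -0.34 with an adjusted p of 0.0156 without replicate 3.

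Of the regulators of pachytene spermatocytes, Mybl1 was at 9.54, 9.34, 9.20, 9.65 and 9.40 in Ing2-/- testes and at 9.76, 9.51 and 9.57 in Ing2+/+ testes. The groups overlapped, and the change was -0.19 (SE 0.11, adjusted p 0.302 in limma), or -0.13 without replicate 3. Tcfl5 encodes a basic helix-loop-helix factor of spermatocytes and spermatids. Tcfl5 was at 10.95, 10.92, 10.39, 10.89 and 10.76 in Ing2-/- testes and at 11.09, 10.99 and 11.05 in Ing2+/+ testes. The groups were separate by a narrow margin, and the change was -0.26 (SE 0.125, adjusted p 0.214 in limma), or -0.16 with an adjusted p of 0.146 without replicate 3.

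The RFX genes and Sox30 completed the set. Rfx2 was at 9.81, 9.87, 9.02, 9.70 and 9.44 in Ing2-/- testes and at 9.78, 9.86 and 9.98 in Ing2+/+ testes. Replicates 1 and 2 of the Ing2-/- group lay within the Ing2+/+ range, and the change of -0.31 (SE 0.181, adjusted p 0.298 in limma) rested largely on replicate 3, since the other 4 testes differed from the Ing2+/+ mean by -0.17. Rfx4, an RFX gene with a testis transcript, was at 9.38, 9.28, 8.56, 9.43 and 9.13 in Ing2-/- testes and at 9.53, 9.50 and 9.47 in Ing2+/+ testes. Here the groups did not overlap, and the change was -0.34 (SE 0.18, adjusted p 0.25 in limma), or -0.19 with an adjusted p of 0.148 without replicate 3. Sox30, an HMG-box gene, was at 10.41, 10.33, 9.80, 10.39 and 10.38 in Ing2-/- testes and at 10.61, 10.69 and 10.62 in Ing2+/+ testes. The 4 Ing2-/- testes besides replicate 3 lay close together and all below the Ing2+/+ testes. The change of Sox30 was -0.37 (SE 0.139, adjusted p 0.126 in limma), and -0.26 with an adjusted p of 0.0211 without replicate 3.

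For single values the exact two-sided permutation test over the 56 splits of the arrays gave p = 0.0179, the smallest it can give, for Gtf2a1l, Tbpl1 and Sox30. It gave 0.0536 for Fhl5, 0.0893 for Tcfl5, 0.107 for Rfx4, 0.179 for Mybl1, 0.196 for Rfx2, 0.268 for Crem and 0.339 for Taf4b. Over the 9 genes that were measured lower, the mean distance from the Ing2+/+ mean was -0.20, -0.26, -0.81, -0.15 and -0.36 in Ing2-/- replicates 1 to 5. Replicate 4 was nearest to the Ing2+/+ testes and replicate 3 farthest. The same order was seen in a cell mix value, the mean Sertoli marker level minus the mean round spermatid marker level relative to Ing2+/+, which was 0.642, 0.653, 1.98, 0.501 and 0.881 in these arrays and -0.053 to 0.064 in Ing2+/+ arrays. With this value as a covariate, 7 of the 9 genes had a fitted change above 0 (0.02 for Mybl1 and Sox30 to 0.22 for Crem), while Gtf2a1l kept -0.20 and Tbpl1 -0.11, and none was called. The covariate does not overlap between genotypes, so that cell mix and genotype cannot be told apart.

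**Figure D2:**
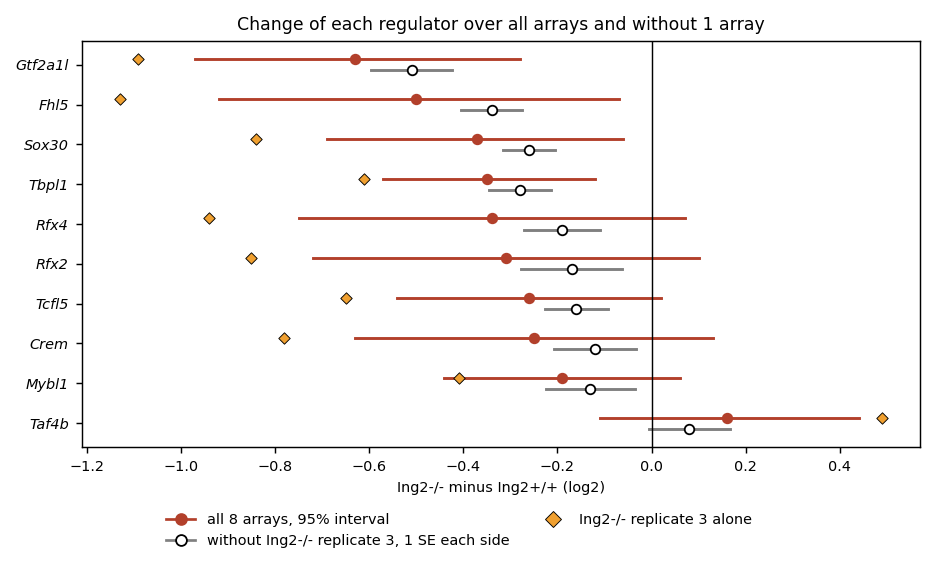
Change of each regulator (Ing2-/- minus Ing2+/+, log2) over all 8 arrays with its 95% interval (filled), without Ing2-/- replicate 3 with 1 SE on each side (open), and in replicate 3 alone (diamond). The change of Gtf2a1l was -0.63 over all arrays and -0.51 without replicate 3, and for every gene measured lower the open point lies nearer to 0 than the filled one.

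Several regulators have a widely expressed relative, and the ratio of the 2 within each array does not depend on a shift of the whole array. Such a ratio still depends on the mix of cells where the 2 genes differ in the cells that express them. The part of cell mix in these ratios was not tested. Tbpl1 and Tbp, the TATA-binding protein gene, had nearly equal changes. Tbp was at 9.92, 9.77, 9.49, 10.03 and 9.86 in Ing2-/- testes and at 10.24, 10.10 and 10.11 in Ing2+/+ testes, a change of -0.34 (adjusted p 0.11 in limma), or -0.25 with an adjusted p of 0.0636 without replicate 3. The log2 ratio of Tbpl1 to Tbp changed by -0.01, with an SD of 0.07 in Ing2-/- and 0.01 in Ing2+/+ testes (exact permutation p = 0.893), and by -0.03 without replicate 3. Gtf2a1l parted from Gtf2a1, which encodes the TFIIA subunit of other cells. Gtf2a1 was at 9.57 to 9.67 in Ing2-/- testes and at 9.48 to 9.56 in Ing2+/+ testes, a change of 0.09 (adjusted p 0.371 in limma) that was 0.07 without replicate 3 and became -0.45 with equal Sertoli markers. The log2 ratio of Gtf2a1l to Gtf2a1 changed by -0.71, lay lower in every Ing2-/- testis (-0.38 to -1.23 relative to the Ing2+/+ mean), and gave an exact permutation p of 0.0179, or 0.0537 after Benjamini-Hochberg adjustment over the 6 ratios compared. Without replicate 3 this ratio changed by -0.58.

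Crem relative to Creb1, the widely expressed gene of the same family, changed by -0.41 (exact permutation p = 0.0893, 0.134 adjusted over the 6 ratios), and by -0.25 without replicate 3. Creb1 itself had a change of 0.16 (adjusted p 0.153 in limma), which was 0.13 without replicate 3 and became -0.37 with equal Sertoli markers. Taf4, the relative of Taf4b, was called higher, with a change of 0.27 and an adjusted p of 0.0415 in limma. It was at 8.09 to 8.24 in Ing2-/- testes and 7.86 to 7.92 in Ing2+/+ testes. With equal Sertoli markers, a scaling that shifts all changes alike, its change was -0.26. Without replicate 3 the change of Taf4 was 0.25 with an adjusted p of 0.0215. The ratio of Taf4b to Taf4 changed by -0.11 (exact permutation p = 0.321, 0.385 adjusted over the 6 ratios), and by -0.17 without replicate 3.

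Rfx1 and Rfx3, the RFX relatives compared with Rfx2, were measured lower by more than Rfx2 itself. This did not hold for all RFX genes, since Rfx5 had a change of -0.09 and Rfx7 of 0.15 (adjusted p 0.501 and 0.374 in limma). Rfx1, a widely expressed RFX factor, was at 8.36, 8.49, 7.80, 8.30 and 8.32 in Ing2-/- testes and at 8.82, 9.04 and 9.08 in Ing2+/+ testes. It fell by 0.72 on the log2 scale (SE 0.148, adjusted p 0.0361 in limma), and by 0.61 with an adjusted p of 0.00626 without replicate 3. Rfx3, which is known for its role in motile and sensory cilia, was at 8.16 to 8.73 in Ing2-/- testes and at 9.04 to 9.12 in Ing2+/+ testes, a change of -0.55 with an adjusted p of 0.0517. Without replicate 3 the change of Rfx3 was -0.46, and it was called with an adjusted p of 0.0197. The log2 ratio of Rfx2 to Rfx1 was higher in every Ing2-/- testis, by 0.41 on average (exact permutation p = 0.0179, 0.0537 adjusted over the 6 ratios), and that of Rfx2 to Rfx3 was higher by 0.24 (0.0536, 0.107 adjusted). Without replicate 3 these differences were 0.43 and 0.29 in the same order. With 3 against 5 arrays a single ratio of 6 could not have passed the adjustment.

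**Figure D3:**
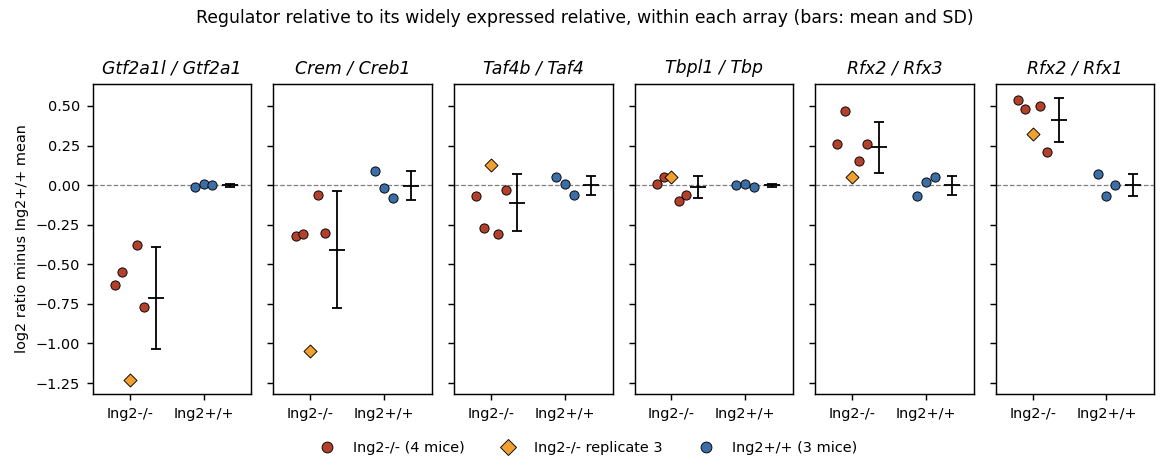
Log2 ratio of a regulator to its widely expressed relative within single arrays and relative to the Ing2+/+ mean, in 5 Ing2-/- testes (left, replicate 3 as a diamond) and 3 Ing2+/+ testes (right), with bars for mean and SD. The ratio of Gtf2a1l to Gtf2a1 changed by -0.71, that of Tbpl1 to Tbp by -0.01 and that of Rfx2 to Rfx1 by 0.41.

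The list of 28 relatives and partners includes other TAF, CREB, FHL, MYB, RFX, SOX and E-protein genes. In this list 2 were called lower, 1 higher, and the median change was 0. Over all probe sets 3.03% were called lower and 1.79% higher. Without replicate 3 the median was also 0, with 4 called lower and 4 higher, where 6.77% of all probe sets were called lower and 7.31% higher. Besides Rfx1 and Taf4, the third called gene was Sox5, a SOX gene with a short transcript in spermatids. Sox5 was at 7.04 to 7.49 in Ing2-/- testes and at 7.72 to 7.74 in Ing2+/+ testes, and fell by 0.50 (SE 0.0969, adjusted p 0.0306 in limma), or by 0.45 with an adjusted p of 0.0154 without replicate 3. Of 23 measured genes in the list of other germ cell regulators, 2 were called lower and 0 higher, and the median change was -0.17. Without replicate 3 the median was -0.09, with 3 called lower and 2 higher. The genes called over all arrays were Hsf2, a heat shock factor of meiotic germ cells, with a change of -0.49 (8.71 to 9.18 in Ing2-/- and 9.32 to 9.49 in Ing2+/+ testes, adjusted p 0.0439), and Sohlh2, a helix-loop-helix factor of differentiating spermatogonia, with a change of -0.31 (7.30 to 7.55 in Ing2-/- and 7.66 to 7.75 in Ing2+/+ testes, adjusted p 0.0471). Without replicate 3 both were called as well, with -0.44 for Hsf2 (adjusted p 0.0249) and -0.31 for Sohlh2 (adjusted p 0.0272). The 5 calls of these lists did not hold when any Ing2+/+ array was left out (adjusted p from 0.0997 to 0.172) or when Ing2-/- replicate 5 was (0.0790 to 0.108). Further calls did not hold without Ing2-/- replicate 1 (Rfx1, Sox5, Taf4 and Hsf2, 0.0582 to 0.0718), replicate 2 (Sox5, Taf4, Hsf2 and Sohlh2, 0.0504 to 0.0718) or replicate 4 (Taf4 and Sohlh2, 0.0571 and 0.0624).

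Genes known as targets of these regulators were not called over all arrays, and 4 of them were called lower without replicate 3. Over all arrays 3.03% of all probe sets were called lower and 42.8% had a change below 0. Without replicate 3, 6.77% of all probe sets were called lower. All 10 CREM targets of spermatids, with the protamines, the transition proteins and genes of the sperm tail, were measured lower, with a median change of -0.19 and 0 called. Without replicate 3 the median was -0.11, and Akap4 was called. Akap4, which encodes the main anchoring protein of the fibrous sheath, was at 10.59 to 11.14 in Ing2-/- testes and at 11.32 to 11.39 in Ing2+/+ testes (change -0.41, adjusted p 0.0881 in limma), and without replicate 3 its change was -0.31 with an adjusted p of 0.0348. Ace, with a germ cell form of the angiotensin-converting enzyme, had a change of -0.31 (adjusted p 0.148), or -0.22 (adjusted p 0.0886) without replicate 3, which turned to 0.02 with the cell mix covariate. The summed level of these 10 genes in Ing2-/- replicate 3 differed from the Ing2+/+ mean by -0.39, and that of the other Ing2-/- testes by -0.11.

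Of 10 A-MYB targets, 9 were measured lower and 0 were called, with a median of -0.12. Without replicate 3 the median was -0.03, and Ccna1 and Tdrd6 were called lower. Ccna1, the meiotic cyclin A1 gene, had the largest measured change of all genes in the 5 lists. It was at 9.93, 9.64, 8.90, 9.67 and 9.46 in Ing2-/- testes and at 10.32, 10.22 and 10.34 in Ing2+/+ testes, a change of -0.78 (SE 0.197, adjusted p 0.0576 in limma), and its groups did not overlap. Without replicate 3 its change was -0.62 with an adjusted p of 0.0111. Tdrd6, a Tudor gene of the chromatoid body, had a change of -0.43 (adjusted p 0.0971), or -0.32 (adjusted p 0.0221) without replicate 3. Of 10 genes bound by RFX factors (the testis linker histone and genes of ciliary transport), 9 were measured lower, with a median of -0.23 and 0 called, and without replicate 3 the median was -0.17 and Spag6 was called lower. Spag6, a central apparatus gene of the sperm tail, had a change of -0.53 (adjusted p 0.0751), or -0.42 (adjusted p 0.0318) without replicate 3. Ift20, an intraflagellar transport gene, was at 10.22 to 10.30 in Ing2-/- testes and at 9.97 to 10.17 in Ing2+/+ testes, a change of 0.22 (adjusted p 0.0881) that was 0.23 (adjusted p 0.0594) without replicate 3 and became -0.32 with equal Sertoli markers.

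**Figure D4:**
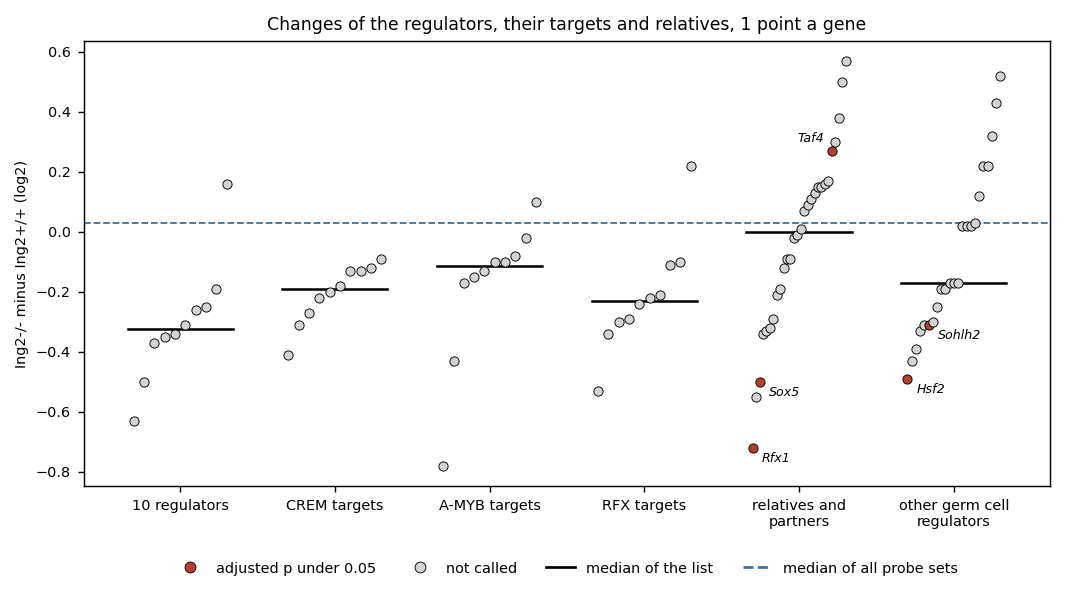
Change (Ing2-/- minus Ing2+/+, log2) of each gene in the set of 10 regulators, in 3 lists of their known targets, and in the lists of relatives and of other germ cell regulators. Filled points passed an adjusted p of 0.05, bars are list medians (-0.33, -0.19, -0.12, -0.23, 0 and -0.17) and the dashed line is the median of all probe sets (0.03).

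The same arrays gave the following values for markers of testis cells. Over all probe sets 3.03% were called lower, 1.79% higher, and 42.8% had a change below 0. Without replicate 3, 6.77% were called lower and 7.31% higher. Of 8 pachytene markers all were measured lower, 1 was called, the median change was -0.20, and the log2 summed level was 13.74 to 14.16 in Ing2-/- and 14.28 to 14.29 in Ing2+/+ testes. Of 10 round spermatid markers 9 were measured lower, 1 was called, and the median change was -0.38. All 10 elongating spermatid markers were measured lower with 0 called and a median of -0.18. Their summed levels were 14.87 to 15.24 in Ing2-/- and 15.25 to 15.32 in Ing2+/+ testes. Prm1, Prm2, Tnp1, Tnp2, Odf1, Smcp and Akap4 are among both these markers and the CREM targets. Ldhc, Ccna1, Piwil1 and H1f6 are likewise both pachytene markers and listed targets. The marker and target lists are thus not separate results. Of the somatic cells, the 10 measured Sertoli markers were all measured higher with 0 called and a median of 0.51, and the 7 measured Leydig cell markers were all measured higher with 5 called and a median of 0.60. Markers of macrophages (0.39), peritubular myoid cells (0.20) and endothelium (0.14) had smaller medians, and 8 markers of leptotene to zygotene cells had a median of 0.02. Without replicate 3, 2 pachytene, 4 round spermatid and 2 elongating spermatid markers were called lower, with medians of -0.14, -0.27 and -0.12 in that order, and 7 Sertoli and 6 Leydig cell markers were called higher, with medians of 0.38 and 0.52. The part of these cells in the changes of the regulators was not tested.

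Gtf2a1l, the regulator with the smallest p, was set against all other named genes by the root mean square difference over the 8 arrays, each gene taken relative to its Ing2+/+ mean. The nearest were Wdr78 (0.0486), Slc36a3 (0.0557), Gm973 (0.0573), Actrt1 (0.0592) and 1300017J02Rik (0.0619). Since these genes were picked as the nearest on the same values, changes close to that of Gtf2a1l follow from the choice. Their changes were -0.63, -0.66, -0.65, -0.68 and -0.62 in the same order. They were -1.04 to -1.19 in Ing2-/- replicate 3 and -0.51 to -0.56 over the other Ing2-/- testes. Among the 10 regulators Fhl5 was nearest to Gtf2a1l (0.132), Sox30 (0.218) and Rfx4 (0.233) followed, and Taf4b was farthest (0.717).

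Promoters were searched for the core motifs of the factor families that these regulators belong to. The table of RefSeq promoters (GRCm38.p6) held windows for 7 of the 10 genes, 9 windows in all, and the 250 bases before each start were searched on both strands beside 32851 windows of all genes. Crem, Mybl1 and Taf4b had no window, so their promoters were not searched. The Gtf2a1l promoter held an inverted repeat of the kind bound by RFX factors, GTTGC and GCAAC with up to 4 bases between, at positions -39 to -27 from the start. This motif was defined after the sequence had been seen, and 0.381% of all windows held it. The last 60 bases before the start, chr17:88668600-88668659 on the plus strand, are shown with the repeat in capitals.
Gtf2a1l: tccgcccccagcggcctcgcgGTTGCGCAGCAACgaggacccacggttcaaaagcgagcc

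The MYB core AACGG stood in 3 promoters and in 14.5% of all windows. Tcfl5 and Rfx2 had 3 matches each and Sox30 had 1. The stretches from shortly before the first match to the start are shown because they hold the matches of A-MYB's own motif in other regulators of the set, with each AACGG or its reverse complement in capitals. They lie at chr2:180642692-180642821 (minus strand) for Tcfl5, chr17:56831009-56831198 (minus strand) for Rfx2 and chr11:45980250-45980309 (plus strand) for Sox30.
Tcfl5: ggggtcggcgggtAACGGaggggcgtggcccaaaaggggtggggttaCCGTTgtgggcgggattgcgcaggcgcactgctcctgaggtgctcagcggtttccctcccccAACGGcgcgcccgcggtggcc
Rfx2: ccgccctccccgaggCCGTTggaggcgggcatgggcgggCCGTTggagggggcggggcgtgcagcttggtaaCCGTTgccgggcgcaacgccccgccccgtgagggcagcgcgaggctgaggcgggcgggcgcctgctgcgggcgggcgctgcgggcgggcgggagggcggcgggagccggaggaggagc
Sox30: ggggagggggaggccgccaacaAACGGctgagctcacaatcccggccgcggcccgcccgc
The 3 genes had different changes in Ing2-/- testes, -0.26 for Tcfl5, -0.31 for Rfx2 and -0.37 for Sox30, none of them called over all arrays, and the difference between these changes was not tested. The full cyclic AMP response element TGACGTCA was in none of the 9 windows and in 1.55% of all windows, and its core TGACG was in Rfx2 alone (17.8% of all windows). The SOX core ACAAT was in Fhl5, Rfx4 and Sox30 (27.7% of all windows), and the E-box CACGTG was in none (6.02%). A match describes letters in these windows and does not show that a factor binds there.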

How the data were processed

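Affymetrix Mouse Gene ST arrays were hybridized with RNA of whole testes from 5 Ing2-/- and 3 Ing2+/+ mice, with no pooling. The deposited values are RMA levels in log2, which the authors computed in Affymetrix Expression Console (version not given in the sources read). RMA subtracts background, equalizes the distributions of the arrays and combines the probes of a probe set, so changes in total RNA per testis do not show. Scanner files were not used here. Of 35557 probe sets, the platform annotation gives 1 symbol to 21789 (21698 of these updated by gene identifier), several to 1621 and none to 12147. Promoters were those of RefSeq (GRCm38.p6).

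Genotypes were compared in R 4.3.3 by limma 3.58.1 with lmFit and eBayes, without covariates, and p-values were adjusted over all probe sets. The prior had 2.85 degrees of freedom. The methods used another test with shared variance, at an unadjusted p under 0.001. The fit was tested on simulated data with independent noise of the same spread on every array. That test did not cover an array that deviates as a whole. The number of arrays limits the precision. Named genes were the 10 regulators, Ing2, the called genes of each list (at most 4, and without a call those of the 2 lowest p), 6 widely expressed relatives, and the 5 genes most like the regulator with the smallest p. Rfx5 and Rfx7 were given beside Rfx1 and Rfx3. A list gene with several probe sets was represented by the brightest. Meiosin and Lhcgr were not analysed here, since no probe set used here carries their symbol alone. The regulators and lists were chosen with earlier results of these data known. Other settings tried were a block for the replicate number, leaving out each array, array weights, a cell mix covariate, cyclic loess, scaling to equal Sertoli markers, an intensity trend in a robust fit, no sharing of variance, 2 filters on probe sets, the threshold of the methods, and averaging the probe sets of a gene. Both groups carry replicate numbers in their titles, but the labels do not say whether same-numbered mice are paired. Plots were made in Python 3.11.15 with matplotlib 3.10.9.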

Additional observations from a re-analysis of the deposited data

Results flagged for a closer look

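For 4 of 26 genes tested, 1 of the 5 Ing2-/- testes lay far from the other 4 by Dixon's criterion. The criterion is the gap to the nearest value as a share of the whole range, with a critical value of 0.71. Chance gives about 1 such case in 20 independent ones. All genes were measured on the same 5 arrays and are not independent, so the count was not tested against chance. The testis was replicate 3 each time, and it was the lowest. The share was 0.866 for Sox30, 0.769 for Fhl5, 0.723 for Crem and 0.721 for Rfx1. Groups of 3 Ing2+/+ testes were too small to be examined in this way.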

How the results depend on the processing

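The count of regulators called lower, 0 over all arrays, was 0 to 4 when single arrays were left out (4 without Ing2-/- replicate 3, 1 without replicate 4), 4 with array weights, which gave replicate 3 a weight of 0.212, 2 with cyclic loess, 7 with equal Sertoli markers, and 1 over probe sets above the median level or with 1 symbol. List genes called lower, 4 in the report, were 0 to 11 when single arrays were left out, 13 with array weights, 7 with cyclic loess or above the median level, 35 with equal Sertoli markers, 2 with an intensity trend or at an unadjusted p under 0.001, and 0 with the cell mix covariate or no sharing of variance. List genes called higher, 1 in the report, were 0 to 6 when single arrays were left out, 8 with array weights, and 0 with the cell mix covariate, cyclic loess, equal Sertoli markers, an intensity trend, no sharing of variance or at an unadjusted p under 0.001. Of all 35557 probe sets, 2406 were called lower without Ing2-/- replicate 3 and 1154 without replicate 4. The number was 2932 with array weights, 1502 with cyclic loess and 9144 with equal Sertoli markers, which shift all changes down alike. Above the median level 1054 of 17778 probe sets were called lower, and 1030 of 21789 with 1 symbol. Called higher were 2600 without replicate 3 and 3633 with array weights. Of 190 alternative values for the regulators, 160 kept direction and side of the threshold, 21 passed it and 9 turned.

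With the cell mix covariate the turned changes were 0.22 for Crem, 0.02 for Mybl1, 0.19 for Rfx2, 0.19 for Rfx4, 0.02 for Sox30, 0.07 for Fhl5, -0.14 for Taf4b, 0.08 for Tcfl5 and 0.02 for Ace. With equal Sertoli markers they were -0.37 for Taf4b, -0.32 for Ift20, -0.26 for Taf4, -0.45 for Gtf2a1 and -0.37 for Creb1. That shift moved the median of all probe sets to -0.50 and of the regulators to -0.86, and 9 of 10 regulators lay below the median of all with either scaling. The causes were not tested.

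The replicate number as a block gave -2.15 for Ing2 (adjusted p 0.0612), with 0 probe sets called in all and 0 list genes lower or higher. Replicates 4 and 5 exist in the Ing2-/- group only, so the genotype change in this fit rests on replicates 1, 2 and 3. The fit therefore cannot tell an effect of pairing from the loss of those arrays. Deviations of same-numbered arrays correlated at -0.057, 0.184 and 0.006 for replicates 1, 2 and 3. Only for replicate 2 was the correlation highest with the array of its own number. These values do not settle whether same-numbered mice were paired.

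Over all probe sets the calls numbered 1713 (37.1% higher), 5006 without Ing2-/- replicate 3 (51.9% higher), 6565 with array weights (55.3%), 1982 with cyclic loess (24.2%) and 9160 with equal Sertoli markers (0.175%), and 67, 49 and 445 without Ing2+/+ replicate 1, 2 or 3.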
